A study of Homo sapiens with 12 samples.

Results

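The H3K9 demethylase genes are the 8 human genes KDM3A, KDM3B, JMJD1C, KDM4A, KDM4B, KDM4C, KDM4D and KDM1A, taken by name from the RefSeq gene table (GRCh38.p14), 8 of 20033 protein-coding genes. Their accessible sites were the deposited peak summits lying inside a gene or within 10 kb of it, 64 of the 188019 summits of the series, in 49 of its 91278 intervals. The study measured chromatin accessibility in HT1080 cells, an established human fibrosarcoma line, by ATAC-seq, an assay in which a transposase cuts and tags DNA that is free of nucleosomes. The cells migrated for 48 h through rat tail type I collagen. The low group had gels of 0.3 mg/mL, the medium group of 1.0 mg/mL and the high group of 1.7 mg/mL, and each group had 4 libraries, 12 in all. All 3 groups received the broad matrix metalloproteinase inhibitor GM6001 at 20 µM, so none of the groups lacked it. Cells were freed from the gels with collagenase and frozen before the assay, and at most 25000 went into a library. The series title names heterochromatin formation during confined migration as the subject.

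The deposited list was pooled over the series: 1 set of peaks, with no value per library or per concentration. No comparison between concentrations could therefore be made for these genes, no value below has replicates, and the depth per library is unknown. 4 numbers are used for a summit. The enrichment is the authors' fold of fragments at the summit over the local background, and the −log10 q is the authors' significance of the peak. The pileup (fragments overlapping the summit) and the local background were recovered from the enrichment and the deposited −log10 p. Whether the pileup counts fragments or single reads is not given, and its unit is called fragments throughout. Ranges in parentheses after an enrichment are exact 95% Poisson intervals on the pileup, carried to the enrichment at a fixed background. They cover counting error only. PCR duplicates, or both reads of a fragment, are not independent, and would make these ranges too narrow if counted in the pileup.

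Methylation of lysine 9 of histone H3 marks heterochromatin, where it binds HP1 proteins and accompanies silencing. It is removed by the Jumonji C enzymes, which use iron and oxoglutarate and need oxygen, and by the flavin-dependent amine oxidase LSD1, encoded by KDM1A. In the KDM3 family KDM3A and KDM3B act on the mono- and dimethylated states, and the activity of the related JMJD1C on this residue is debated. KDM4 enzymes act on the trimethylated and dimethylated states, KDM4A, KDM4B and KDM4C also act on lysine 36, and KDM4D does not and lacks their PHD and Tudor domains. KDM1A works in the CoREST corepressor complex, mainly on lysine 4, and has been linked to lysine 9 with nuclear receptors. KDM3A, KDM4B and KDM4C are known targets of the hypoxia-inducible factor HIF-1.

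Start-site sequences were available for all 8 genes, as 11 RefSeq windows (GRCh38.p14) of 300 bases running from 250 bases before to 50 bases after an annotated start. The windows of KDM3A, KDM4B and KDM4C are shown first because they belong to the 3 known hypoxia targets. All are on the plus strand and read 5′ to 3′. Capitals mark the core of the hypoxia response element, ACGTG or GCGTG on either strand.
KDM3A, chr2:86441121-86441420: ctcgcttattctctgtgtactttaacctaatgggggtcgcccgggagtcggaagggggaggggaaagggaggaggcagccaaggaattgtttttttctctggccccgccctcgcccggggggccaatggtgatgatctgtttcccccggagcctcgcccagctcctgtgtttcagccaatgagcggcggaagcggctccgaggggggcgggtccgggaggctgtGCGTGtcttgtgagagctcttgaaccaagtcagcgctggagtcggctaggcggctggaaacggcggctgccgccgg
KDM4B, chr19:4968863-4969162: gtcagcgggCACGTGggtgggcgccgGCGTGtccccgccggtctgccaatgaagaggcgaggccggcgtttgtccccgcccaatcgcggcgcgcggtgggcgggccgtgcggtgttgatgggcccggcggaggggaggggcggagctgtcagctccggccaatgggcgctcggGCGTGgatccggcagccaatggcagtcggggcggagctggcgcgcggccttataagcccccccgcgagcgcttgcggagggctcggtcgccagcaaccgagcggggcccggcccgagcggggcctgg
KDM4C, chr9:6757723-6758022: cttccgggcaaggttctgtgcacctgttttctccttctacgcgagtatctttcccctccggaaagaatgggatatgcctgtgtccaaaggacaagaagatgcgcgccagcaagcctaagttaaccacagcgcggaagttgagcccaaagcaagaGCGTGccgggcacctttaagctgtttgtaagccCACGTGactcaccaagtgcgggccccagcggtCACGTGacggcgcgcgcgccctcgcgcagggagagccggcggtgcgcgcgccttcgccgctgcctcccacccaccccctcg
KDM3A held 1 GCGTG, beginning at base 225 of the window. KDM4B held GCGTG at bases 27 and 174 and the E-box CACGTG at base 10. KDM4C held CACGTG at bases 188 and 220 and GCGTG at base 155. CACGTG is its own reverse complement and contains ACGTG on both strands, so each E-box is also a core match. In KDM4C the first E-box overlaps TGACTCA, the AP-1 recognition sequence, at bases 192 to 198. TGACTCA was also in the window of the second KDM3A start, so in 2 of the 11 windows, and in 4.01% of all windows. ACGTG or GCGTG was found in 7 of the 11 windows, belonging to 6 of the 8 genes, and in 54.7% of all 22198 start windows. The 2 KDM3A windows overlap and share their GCGTG, which is counted in both. The core was not confined to the 3 hypoxia targets. KDM1A held GCGTG at bases 1, 254 and 291 and ACGTG at base 132, and KDM4A held GCGTG at base 172. CACGTG was found in 3 of the 11 (JMJD1C, KDM4B and KDM4C) and in 8.34% of all windows, and at least 2 copies, as in KDM4C, in 0.851%. These matches describe the letters of the window, not binding.

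JMJD1C has 3 annotated starts, called A, B and C here in the order of transcription, and their windows are shown because they differ in CG content. The gene lies on the minus strand and each window is read 5′ to 3′ on that strand. Capitals mark CG dinucleotides, the sites of DNA methylation.
JMJD1C start A, chr10:63521841-63522140: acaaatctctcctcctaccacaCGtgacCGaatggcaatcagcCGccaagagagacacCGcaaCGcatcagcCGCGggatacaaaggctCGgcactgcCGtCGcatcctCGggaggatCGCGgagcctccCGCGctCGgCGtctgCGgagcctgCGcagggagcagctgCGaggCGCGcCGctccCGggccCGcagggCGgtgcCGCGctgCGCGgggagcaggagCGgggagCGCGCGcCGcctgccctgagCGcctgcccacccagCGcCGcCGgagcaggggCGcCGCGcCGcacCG
JMJD1C start B, chr10:63465928-63466227: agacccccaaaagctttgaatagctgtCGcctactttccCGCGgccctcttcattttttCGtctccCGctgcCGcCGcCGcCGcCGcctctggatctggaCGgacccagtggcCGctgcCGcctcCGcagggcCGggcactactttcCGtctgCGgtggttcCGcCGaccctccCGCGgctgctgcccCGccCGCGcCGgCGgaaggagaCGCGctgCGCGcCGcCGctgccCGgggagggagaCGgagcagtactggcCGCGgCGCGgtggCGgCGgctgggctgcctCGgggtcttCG
JMJD1C start C, chr10:63269194-63269493: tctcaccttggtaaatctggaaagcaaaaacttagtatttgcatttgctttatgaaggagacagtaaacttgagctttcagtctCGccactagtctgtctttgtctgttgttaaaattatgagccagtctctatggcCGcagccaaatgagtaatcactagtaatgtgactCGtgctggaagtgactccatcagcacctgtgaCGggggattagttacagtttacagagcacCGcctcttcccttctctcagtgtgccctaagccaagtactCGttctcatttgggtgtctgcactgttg
Start A held 44 CG dinucleotides, start B 42 and start C 6. The median over the 22198 windows was 21, with quartiles of 7 and 31. Start C was therefore the CG-poor one of the 3, below the lower quartile.

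The KDM4D window is shown because its only summit is shared with a neighbouring gene. Capitals mark CCGGAAG, a recognition sequence of ETS factors, searched on both strands and present in 12.8% of all windows.
KDM4D, chr11:94973459-94973758, plus strand: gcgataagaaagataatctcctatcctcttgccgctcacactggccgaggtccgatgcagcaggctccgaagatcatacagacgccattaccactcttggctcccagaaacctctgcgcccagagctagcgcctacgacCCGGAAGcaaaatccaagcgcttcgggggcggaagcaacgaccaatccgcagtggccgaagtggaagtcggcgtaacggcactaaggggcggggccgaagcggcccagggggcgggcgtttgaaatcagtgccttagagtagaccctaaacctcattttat
The motif lies at bases 140 to 146 and the summit at base 168 of this window. CCGGAAG was also in the KDM4C window, at bases 1 to 7 on the opposite strand, so in 2 of the 11 windows. GGGCGG, the GC box bound by SP factors, was present in 8 of the 11 member windows, from 6 of the 8 genes (56.3% of all windows). CCAAT, bound by NF-Y, was in 6 of the 11, from 5 of the 8 genes (34.7% of all windows). The KDM3A windows overlap, so their matches to both motifs are the same sites counted again. CCAAT occurred 4 times in KDM4B and 3 times in KDM4A, and 3.61% of all windows held at least 3 copies. TATAAA was in 0 of the 11 windows (9.47% of all), as were TGACGT (8.94%), GCGCATG (5.26%) and ATGGCGG (6.99%).

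All 8 genes had an accessible start. A summit lay within 1000 bp of an annotated start in 8 of 8, against 67.6% of the 15842 protein-coding genes with an annotated start. With 10 kb flanks 8 of 8 had a summit at all, against 89.8% of 20033 genes. The strongest start-site summit of each gene had an enrichment between 11.4 (KDM4C) and 17.7 (KDM4B), with a median of 14.97 over the 8 genes and of 12.29 over the 10717 protein-coding genes with a start-site summit. Pileups ran from 548 (KDM4D) to 5448 fragments (KDM4B), with a median of 1350 for the 8 genes and 822 for all. No start-site summit of the 8 genes had a −log10 q under 10. The lower quartile over all 188019 summits of the series, at starts or not, was 9.955.

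Among the KDM3 genes, KDM3A had a single interval of 944 bp at chr2:86440696-86441639 with 2 summits. They lay 397 and 127 bp before the first of its 2 annotated starts, with enrichments of 9.71 (9.27 to 10.2) and 12.2 (11.7 to 12.7). The pileup at the stronger one was 2353 fragments over a local background of 192.3, at percentile 90.6 of genes with a start-site summit. The RefSeq gene model of KDM3A begins 4327 bp before that start, and no summit lay at that outer end. KDM3B had its start summit 76 bp before the start, in an interval of 1211 bp at chr5:138352319-138353529, with an enrichment of 13.0 (12.3 to 13.8) and a pileup of 1214. In both genes the start was the strongest site.

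JMJD1C was accessible at all 3 of its annotated starts. Of 857 protein-coding genes with 3 annotated starts, 40.7% had a summit at each. At start A, the outer end of the gene, 3 summits had enrichments of 5.81 to 5.87 and pileups of 313 to 317. An end of REEP3, a neighbouring gene encoding a membrane protein of the REEP family, lay within 1000 bp of these summits. At start B the 2 summits had enrichments of 8.58 and 7.38 and pileups of 294 and 251, and an end of the antisense gene JMJD1C-AS1 lay within 1000 bp of both. Start C lies inside the gene, 252647 bp downstream of start A. Its summit, 15 bp from the start, had an enrichment of 15.3 (14.4 to 16.2) and a pileup of 1158, the highest of the gene on both measures. The counting intervals of the strongest summits at starts A, B and C did not overlap: 5.24 to 6.55, 7.63 to 9.61 and 14.4 to 16.2. Of 5304 annotated starts with no more CG dinucleotides than start C, 18.3% had a summit. The 968 with one had a median enrichment of 5.04, and 40 of them exceeded the value of start C. The order of the 3 starts in enrichment was the reverse of their order in CG content, but by pileup start A (317) stood above start B (294), with local backgrounds of 53.2 and 33.4.

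**Figure D1:**
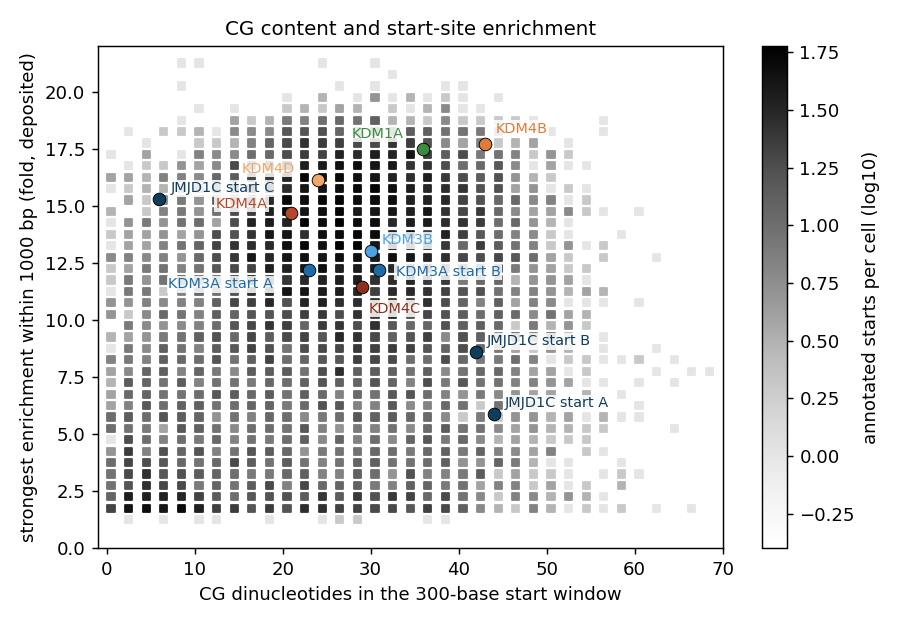
CG dinucleotides in the 300-base start window (x axis, count) against the strongest deposited enrichment within 1000 bp of that start (y axis, fold). Coloured points are the 11 annotated starts of the 8 genes and grey squares count annotated starts with a summit. JMJD1C start C stands at 6 CG and an enrichment of 15.3, while its starts A and B stand at 44 and 42 CG with 5.87 and 8.58.

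In the KDM4 family, KDM4B had the strongest start of the 8 genes. Its interval of 700 bp at chr19:4968532-4969231 had a summit 245 bp before the start with an enrichment of 17.7 (17.3 to 18.2). The pileup of 5448 fragments ranked 15 among the 10717 genes with a start-site summit. The local background there was 306.4 fragments, 15.08 times the genome-wide value of 20.3. KDM4A followed in pileup, with 2480 fragments and an enrichment of 14.7 (14.1 to 15.3), 97 bp before its start in the interval chr1:43649645-43650699. KDM4C had the lowest start enrichment of the 8 genes, 11.4 (10.8 to 12.04), with a pileup of 1443, in the longest interval of the set, 1970 bp at chr9:6757094-6759063. The KDM4C gene model begins 37110 bp before that start, and no summit lay within 1000 bp of that outer end. KDM4D had an enrichment of 16.1 (14.8 to 17.5) at a summit 83 bp before its start, in the interval chr11:94973209-94973925. The annotated start of CWC15, which encodes a spliceosome protein, was 70 bp from the same summit, nearer than that of KDM4D. The list cannot assign this site to either gene.

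KDM1A, the gene of LSD1, had an enrichment of 17.5 (16.6 to 18.5) and a pileup of 1257 at its start, 61 bp before it, in the interval chr1:23019044-23020039. It was the enrichment next below KDM4B, and their counting intervals overlapped. In descending order the start enrichments were KDM4B, KDM1A, KDM4D, JMJD1C, KDM4A, KDM3B, KDM3A and KDM4C. Neighbours in this order had overlapping counting intervals, except KDM4A (14.1 to 15.3) and KDM3B (12.3 to 13.8).

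Enrichment and pileup ranked the genes differently. KDM4D was at percentile 85.4 of genes with a start-site summit by enrichment and at percentile 35.4 by pileup, with a background of 33.0 fragments. KDM3A was at percentile 49.2 by enrichment and 90.6 by pileup, with a background of 192.3. KDM4B was high on both measures, at percentiles 96.0 and 99.9, whereas KDM1A was at 95.1 and 68.1. With the genome-wide background in the denominator for every gene, a setting chosen after the values were seen, the enrichments became 255.6 for KDM4B, 116.4 for KDM4A, 110.4 for KDM3A, 67.7 for KDM4C, 59.0 for KDM1A, 57.0 for KDM3B, 54.4 for JMJD1C and 25.7 for KDM4D. KDM4D moved from the third place to the last, and KDM4C from the last to the fourth.

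**Figure D2:**
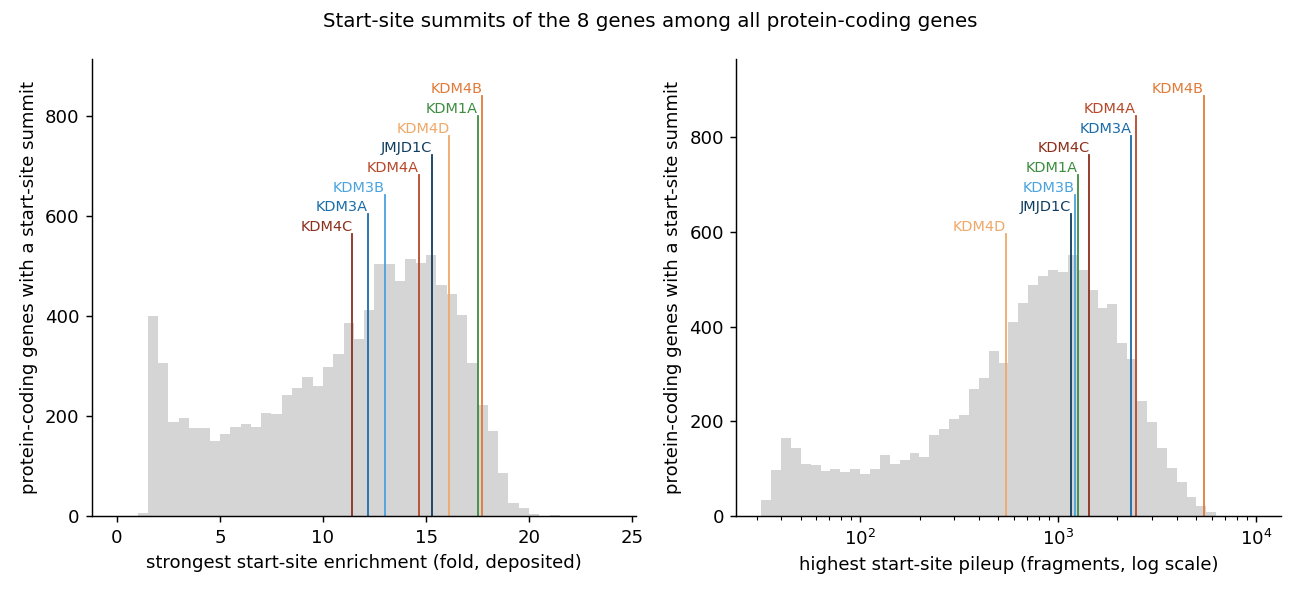
Left, strongest deposited start-site enrichment (fold); right, highest start-site pileup (fragments, log axis); grey bars count the 10717 protein-coding genes with a start-site summit and each coloured line is 1 of the 8 genes. KDM4B lies near the upper edge in both panels, and KDM4D lies above the upper quartile of genes in enrichment (16.1 against 14.99) and below their median in pileup (548 against 822).

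Away from their own starts the 8 genes held 50 of their 64 summits (78.1%, exact binomial 95% interval 66.0 to 87.5), and 2 of the 50 lay at a start of another gene. Counted only inside the genes and against any annotated start, the share was 44 of 53 (83.0%, 70.2 to 91.9), and it was 85.5% of the 51010 summits inside all protein-coding genes. The binomial ranges in this paragraph treat the summits as independent. The 64 summits lay in only 49 intervals of 8 chosen genes, so these ranges can be too narrow. The 50 summits had a median enrichment of 2.83 and pileups from 35 to 1770, and 22 of them (44%, 30.0 to 58.7) had a −log10 q under 10. The 44 that lay inside the genes also had a median enrichment of 2.83, against 3.69 for 42886 summits inside protein-coding genes and away from any annotated start, in intervals of at most 10 kb. Over all 188019 summits of the series, at starts or not, the lower quartile of −log10 q was 9.955. The share under 10 among the 42886 was not counted. KDM4B, KDM4C and JMJD1C, the 3 longest genes, held 42 of the 50. The median number of summits per 100 kb of gene and flanks was 3.21 for the 8 genes and 5.89 for all protein-coding genes.

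**Figure D3:**
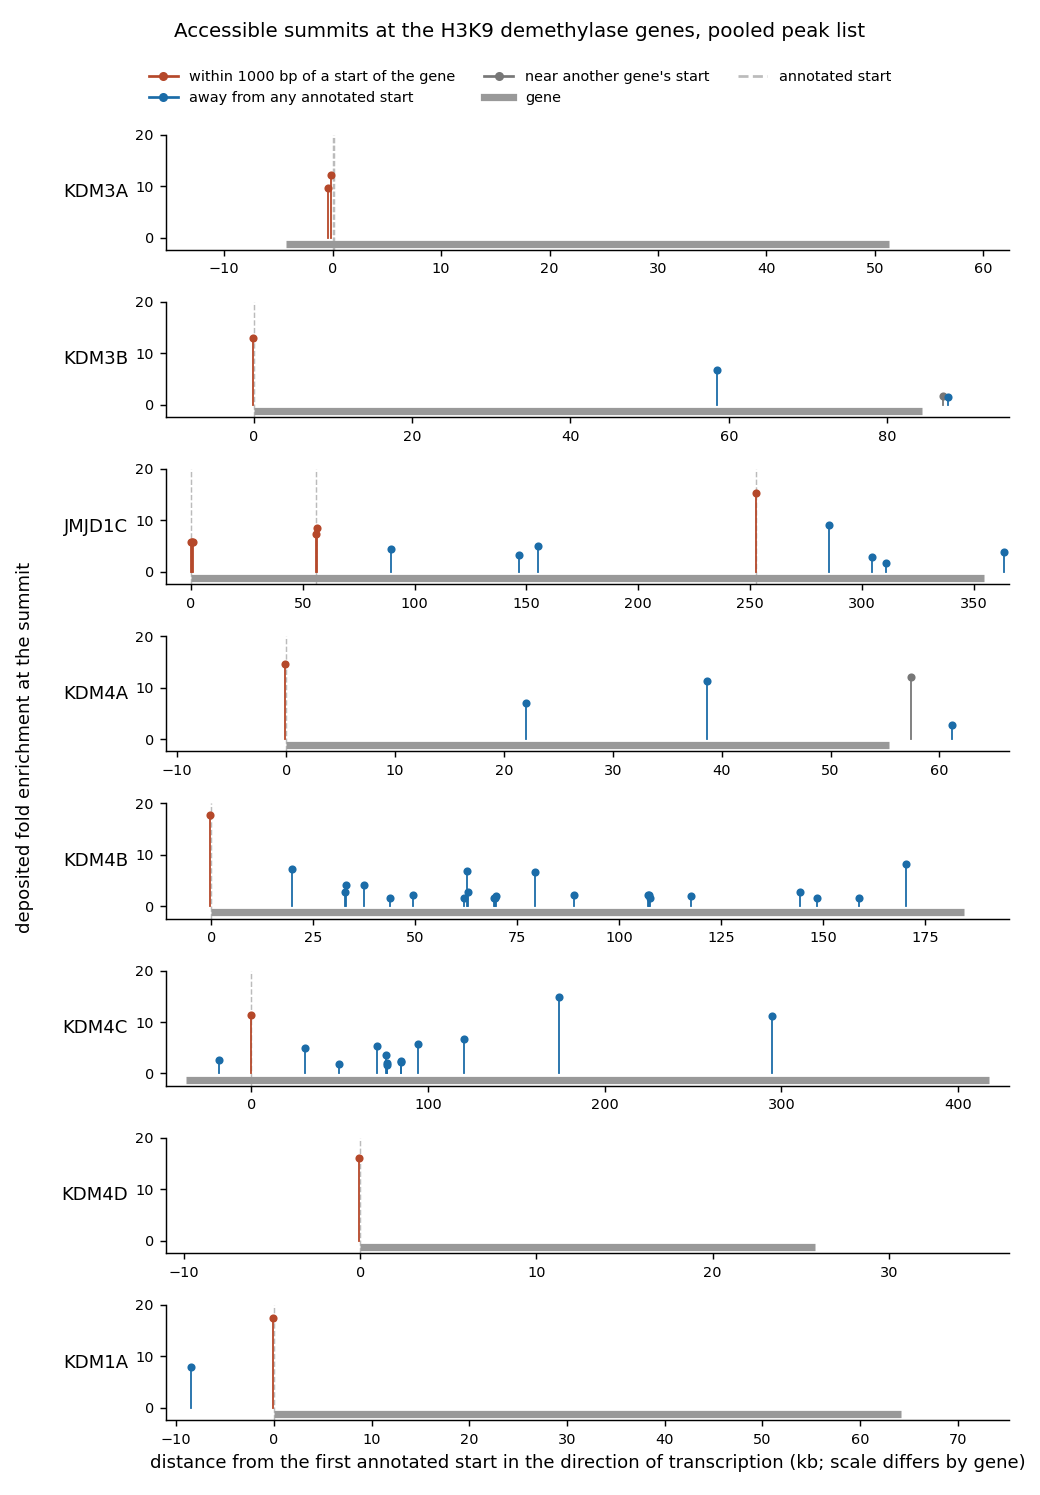
Deposited fold enrichment (y axis) of each of the 64 summits by distance in kb from the first annotated start in the direction of transcription (x axis, a different scale for each gene), with the gene as a grey bar and its annotated starts as dashed lines. KDM3A and KDM4D have summits only at the start, KDM4B has 22 others along the gene, and in KDM4C the summit at 174.1 kb (14.9) stands above the one at the start (11.4).

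KDM4B carried the most summits when all were counted, 23 in 16 intervals over a gene of 184.5 kb, or 11.2 per 100 kb of gene and flanks. That density was at percentile 77.2 of protein-coding genes, whose median was 5.89, and its 22 summits inside the gene and away from starts were at percentile 94.1 of genes of at least 150 kb. At a −log10 q of at least 10, JMJD1C had 12 and KDM4B 10, and at 50 JMJD1C had 7 and KDM4B 5. These totals include 6 start-site summits in JMJD1C and 1 in KDM4B. Away from starts, at least 50 was reached by 4 summits in KDM4B and 1 in JMJD1C. Over all summits of the series the lower quartile of −log10 q was 9.955. Most of the KDM4B summits away from starts were weak: 13 of the 22 had a −log10 q under 10 and 4 had one of at least 50. The strongest were 170.3 kb downstream of the start, with an enrichment of 8.22 (7.48 to 9.0045) and a pileup of 458, 19.9 kb downstream, with 7.21 (6.30 to 8.22), and 62.7 kb downstream, with 6.88 (6.17 to 7.64). All 3 were below the 17.7 at the start. The annotated start nearest to the summit at 170.3 kb was that of PTPRS-AS1, 38368 bp away.

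KDM4C, the longest of the 8 genes at 454.8 kb, had 14 summits, of which the 13 inside the gene and away from starts were at percentile 80.5 of genes of at least 150 kb. Per 100 kb of gene and flanks KDM4C had 2.95 summits, at percentile 26.8 of protein-coding genes. By enrichment its strongest site was not the start. The summit 174.1 kb downstream of the annotated start had an enrichment of 14.9 (13.6 to 16.4), above the 11.4 (10.8 to 12.04) at the start, with counting intervals that did not overlap. By pileup the order was the opposite, 439 fragments against 1443, with local backgrounds of 28.5 and 125.3. The enrichment at 174.1 kb was at percentile 98.2 of the 42886 summits away from starts. A summit 294.8 kb downstream had 11.3 (9.88 to 12.8) and a pileup of 239 over the genome-wide background, at percentile 91.9, and one 120.1 kb downstream had 6.71 (5.66 to 7.90). A group of 3 weaker summits, with enrichments of 1.69 to 3.58, lay within 1000 bp of an end of ACTG1P14, an actin pseudogene inside KDM4C.

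JMJD1C had 7 summits away from its 3 starts. The strongest, 32.6 kb downstream of start C, had an enrichment of 9.10 (7.87 to 10.5) and a pileup of 193 (percentile 85.7). The next were 5.02 (4.12 to 6.06), between starts B and C at 97.3 kb before start C, and 4.46 (3.61 to 5.44), 33.6 kb downstream of start B. At 354.7 kb the gene had 3.47 summits per 100 kb, at percentile 31.4 of protein-coding genes, while its 6 summits inside the gene and away from starts equalled the median of genes of at least 150 kb.

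KDM4A had 2 summits inside the gene and away from its start, both well above the median of 3.69. The one 38.7 kb downstream had an enrichment of 11.3 (10.3 to 12.2) and a pileup of 551, at percentile 92.0, and the one 21.99 kb downstream had 6.99 (6.08 to 7.99), at percentile 76.3. The annotated starts nearest to them were those of KDM4A-AS1 (18525 bp) and LOC124904165 (4310 bp), in that order. A further summit, 57.4 kb downstream and beyond the end of the gene, had 12.1 (11.51 to 12.6) and a pileup of 1770. It lay 8 bp from an annotated start of ST3GAL3, a sialyltransferase gene, and within 1000 bp of an end of the antisense gene KDM4A-AS1. The last, inside ST3GAL3, had 2.71 (2.44 to 3.00). KDM3B had 1 site inside the gene, 58.5 kb downstream, with 6.80 (5.76 to 7.96) and a pileup of 151. The annotated start nearest to this site was that of REEP2, 27878 bp away. The 2 other summits of KDM3B, with enrichments of 1.64 and 1.59, lay in REEP2 beyond the end of KDM3B.

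KDM3A, KDM4D and KDM1A had no summit inside the gene away from the start. KDM3A spans 55.7 kb, KDM1A 64.2 kb and KDM4D 25.8 kb. Of 2913 protein-coding genes of 50 to 100 kb, 21.1% had none either. In the 4 members of that length the numbers were 0 for KDM3A, 0 for KDM1A, 1 for KDM3B and 2 for KDM4A, and the median over the 2913 genes was 2. KDM1A had 1 site outside the gene, 8.52 kb before the start, with an enrichment of 8.0006 (7.04 to 9.06) and a pileup of 248, at percentile 81.2. The nearest annotated start to it was that of KDM1A.

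**Figure D4:**
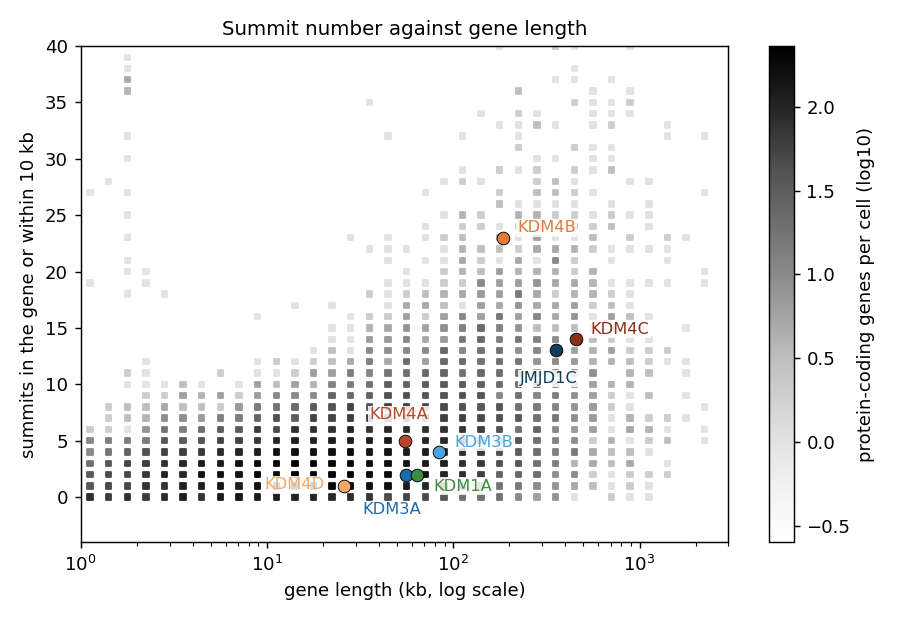
Gene length in kb (x axis, log scale) against the number of summits in the gene or within 10 kb (y axis). Coloured points are the 8 genes and grey squares count protein-coding genes per cell, with 565 genes of more than 40 summits or under 1 kb not drawn. KDM4B holds 23 summits at 184.5 kb, above JMJD1C (13) and KDM4C (14), which are longer. At a −log10 q of at least 10 KDM4B holds 10 and JMJD1C 12, with 1 and 6 of these at starts.

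Related genes were listed by function, as counts with no test. Over the 15842 protein-coding genes with an annotated start, 67.6% had an accessible one. Of 14 other histone demethylases and relatives, 11 had a start window and 11 of these had an accessible start, with a median enrichment of 14.71 against 14.97 for the 8 genes. KDM1B, the LSD1 paralogue, had 18.1, PHF8, a demethylase of the KDM7 family, had 14.97, and PHF2, of the same family, had 2.77. KDM7A (10.8), KDM5C (6.69), KDM5B (3.17) and KDM6B (3.16) were also below the list's median of 14.71. KDM4E, a copy of the KDM4 family near KDM4D, had 0 summits within the gene or 10 kb. Among 14 partners of LSD1 in corepressor complexes, 11 of 11 with a start window were accessible, among them RCOR1, encoding CoREST (15.5), and the deacetylase genes HDAC1 (14.3) and HDAC2 (13.7). On the same list GFI1, a repressor of blood cell genes that recruits LSD1, had 3.53, whereas GFI1B had 14.8 and GSE1 2.62. The opposing methyltransferase and HP1 genes had an accessible start in 8 of 9, with a median of 12.5. EHMT2 was the exception, with 1 summit in the gene or within 10 kb but none within 1000 bp of an annotated start. The reason for this was not tested. Of 7 regulators of the hypoxia response, 6 of 6 with a start window were accessible, with HIF1A at 17.8 and EGLN3 at 9.01. The differences between these lists and the 8 genes were not tested.

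The label of the cells was checked on marker genes. A summit lay within 1000 bp of either gene end in 11 of 14 mesenchymal markers, among them VIM, FN1 and CDH2, against 65.7% of protein-coding genes. It was absent at COL1A1, COL1A2 and THY1. Of the markers of other lineages it was present in 1 of 6 epithelial genes (EPCAM), 1 of 4 blood genes (CD3E), 0 of 4 endothelial genes and 0 of 4 neural genes. By the same measure 6 of the 8 demethylase genes had a summit, KDM3A and KDM4C being missed because their accessible starts lie inside the gene model. RBFOX3, a neural gene, held 52 summits and had a summit with an enrichment of 3.62 at an annotated start, and it was the 1 of the 2 neural genes with an annotated start window that had one there.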

How the data were processed

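The series held 12 ATAC-seq libraries and 1 deposited peak list of 10 columns without a header. Per the submitters' processing notes, fastp 0.20.0, Bowtie2 2.4.3, SAMtools, deepTools 3.5.0 and MACS2 2.2.7.1 were used with build hg38; parameters, duplicate handling and use of a control are not given in the sources used here. The enrichment, a ratio (fold over local background), the p-value and q-value columns on the −log10 scale and the score are the authors' deposited values. A summit is the interval start plus the deposited offset, counted from 1. Pileup and background were solved from enrichment, taken as (pileup + 1)/(background + 1), and a Poisson upper tail; 99.96% of 188019 lines gave a whole pileup within 0.05. Genes came from the RefSeq table and starts from its promoter table (GRCh38.p14); all 8 genes matched both. Exons and introns were not used here. All 8 genes are named; other genes are named where an end lay within 1000 bp of a start-site summit, where they neighbour one of the 3 strongest other summits, or from lists by function. HDAC1 and similar examples within lists, ACTG1P14 and REEP2 were chosen after their values were seen. The members and lists were chosen with earlier results of these data known. Percentiles are the share of genes or summits at or below a value. The planned protein comparison and the planned test between concentrations, which a pooled list cannot give, were not run. Analyses used Python 3.11.15, scipy 1.17.1 and pandas 2.3.3.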

Additional observations from a re-analysis of the deposited data

How the results depend on the processing

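The accessible start in 8 of 8 genes, the 8 of 8 genes with a summit and the median start enrichment of 14.97 did not change with a −log10 q of at least 10 or 50. The start count and the median start enrichment also kept their values with windows of 500 or 2500 bp or with any overlap of the interval. Without flanks 6 of 8 genes had a summit, since those of KDM4D and KDM1A lie before the gene. The 64 summits fell to 42 at a −log10 q of at least 10 and to 29 at 50, and the 4.45 summits per 100 kb fell to 2.92 and 2.015. The share away from starts was 51.7% at a −log10 q of at least 50, against 78.1%. KDM4B fell from 23 summits to 10 and 5 at these limits, KDM4C from 14 to 8 and 5, and JMJD1C from 13 to 12 and 7. JMJD1C then had the most in all, with 6 of its summits at starts against 1 in KDM4B and 1 in KDM4C. Away from starts, a −log10 q of at least 50 was reached by 4 summits in KDM4B, 4 in KDM4C and 1 in JMJD1C. The median percentile of the 8 genes at their starts was 74.9 by enrichment, 71.4 by −log10 q and 71.1 by pileup. With the genome-wide background, chosen after seeing the data, the median start enrichment was 63.4. Leaving out libraries was not run because the list has no values per library. No paired analysis was possible because the list carries no column per library, although the labels number the replicates in each group. Depth per library is unknown, and the pooled pileups set the counting error given with each enrichment.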
